A study of Mus musculus with 4 samples.

Results

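The genes of DNA replication and of the G1/S step of the cell cycle were described across B16F10 melanoma cells grown in 4 conditions. The 46 members were chosen by gene symbol, as the rows of the read count table that carry 1 of 46 listed names. All 46 were found among the 24527 gene symbols of the table. B16F10 is a pigmented mouse melanoma line, and NIH/3T3 is a mouse fibroblast line. The 4 conditions were B16F10 in 2D monoculture, B16F10 sorted from a 2D co-culture with NIH/3T3, B16F10 sorted from hanging drop spheroids grown with NIH/3T3, and tumors raised from B16F10 in mice, all labelled as wild type. Per the study's methods, the B16F10 cells carried green fluorescent protein in the cytoplasm and were sorted on it with dead cells left out, the fibroblasts of the spheroids were red fluorescent, and the tumors grew under the skin of year-old female C57BL/6 mice. The methods describe cells sorted from tumors, whereas the label of that library names snap frozen tumor. Each condition has 1 library, so differences rest on single libraries without a replicate check, and p-values are not given.

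DNA replication is prepared in G1, when the origin recognition complex, Cdc6 and Cdt1 load the ring of MCM proteins onto DNA. In S phase, Cdc45 and the GINS complex turn this ring into an active helicase, and polymerases alpha, delta and epsilon copy both strands behind it with the sliding clamp PCNA. Many of these genes are controlled by E2F transcription factors, which cyclin E and its kinase help to release from the retinoblastoma protein. Most of them are used by dividing cells of any type, and they serve as markers of proliferation.

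The libraries held between 118896900 and 150028663 counted reads, and the members between 207 and 94995 reads in a library. Levels are given as CPM, the reads of a gene per 1000000 counted reads of its library after scaling with TMM factors, which align the bulk of the genes between libraries. Ratios of single genes are CPM ratios with an exact 95% binomial interval, which covers counting error only. A gene was counted as past 2-fold on the scale of log2(CPM + 1). The members were read beside 12728 genes whose mean over the 4 libraries reached 1 CPM. All 46 members passed this filter, with mean levels between 10.2 CPM and 480 CPM. Melanocyte markers were high in each library, with a summed level of 8 markers between 11420 CPM and 20122 CPM. Markers of host cells were high in the tumor library. There, the summed level was 2728 CPM for 9 fibroblast genes, 1557 CPM for 9 myeloid genes, 288 CPM for 7 endothelial genes, 4599 CPM for 5 skeletal muscle genes, 722 CPM for 3 adipocyte genes, 6.35 CPM for 7 lymphoid genes and 1.11 CPM for 4 keratinocyte genes. The 4 erythroid genes were at 0 reads in every library. In the 2D co-culture, the fibroblast genes summed to 679 CPM, against 17.6 CPM in monoculture and 36.5 CPM in spheroid. Within that list, 3 of the 9 genes were more than 2-fold higher in the spheroid than in the 2D monoculture, beside 11.2% of all genes tested. At any size of difference, 6 of the 9 were above the 2D monoculture, beside 6830 of the 12728 genes tested. Pdgfrb had 11.02 CPM in monoculture and 23.5 CPM in spheroid, Col1a1 2.03 CPM and 5.93 CPM, Col3a1 0.274 CPM and 2.28 CPM, and Dcn 0.407 CPM and 0.110 CPM. The myeloid genes summed to between 10.8 CPM and 30.4 CPM in the 3 cultures and the endothelial genes to between 27.6 CPM and 78.5 CPM. Pecam1, Adgre1 and Ptprc, defining genes of endothelial cells, macrophages and leukocytes, were at most at 0.236 CPM, 0.0873 CPM and 0.0961 CPM there, whereas Cd68 reached 27.5 CPM in monoculture, Vwf 4.15 CPM in spheroid and Egfl7 74.0 CPM in spheroid.

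The promoters of the members can be read beside their levels, since E2F factors bind a short GC-rich site. RefSeq promoters of build GRCm38.p6, from 250 bases before to 50 bases after the start, were given for 38 of the 46 members. They were searched on both strands for TTTCGCGC, TTTGGCGC, TTTCCCGC and TTTGCCGC. These letters were found in 15 of the 38 members (39.5%, exact 95% interval 24.04% to 56.6%), against 4.65% of the 9863 expressed genes and 2.60% of all 27025 genes in the promoter table. With the looser TTTNNCGC, 16 members (42.1%) had a match, against 9.68% of the expressed genes and 5.93% of all genes in the table. In 9 of the 15 a match lay wholly before the start. A match of each of these 9 is shown, the one furthest from the start where there are several, with 11 bases on either side or fewer where the start is nearer. Each line runs 5′ to 3′ on the strand of the gene, and capitals mark the match, which lies on the opposite strand where it reads as the reverse complement.
Mcm5: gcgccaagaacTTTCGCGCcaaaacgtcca
Mcm6: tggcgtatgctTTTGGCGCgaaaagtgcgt
Mcm7: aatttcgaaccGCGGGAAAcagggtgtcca
Orc1: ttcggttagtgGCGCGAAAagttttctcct
Cdc6: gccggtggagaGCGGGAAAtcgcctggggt
Gins3: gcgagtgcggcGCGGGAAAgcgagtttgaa
Rfc3: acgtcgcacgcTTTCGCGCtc
Pola1: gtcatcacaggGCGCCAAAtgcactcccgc
Uhrf1: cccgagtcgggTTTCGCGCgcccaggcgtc

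The stretches lie at chr8:75109345-75109374 on the plus strand for Mcm5, chr1:128359797-128359826 on the minus strand for Mcm6, chr5:138172030-138172059 on the minus strand for Mcm7, chr4:108579416-108579445 on the plus strand for Orc1, chr11:98908002-98908031 on the plus strand for Cdc6, chr8:95633507-95633536 on the plus strand for Gins3, chr5:151651209-151651229 on the minus strand for Rfc3, chrX:93632275-93632304 on the minus strand for Pola1 and chr17:56304117-56304146 on the plus strand for Uhrf1. The match shown for Mcm6 began 110 bases before the start, and a second match, in the reverse direction, overlapped it from 106 bases before the start. In Mcm5 the same kind of overlap was found, at 153 and 149 bases before the start. On the scale of log2(CPM + 1), the ratios of spheroid to monoculture of these 9 ran from -2.96 for Cdc6 to -0.37 for Rfc3, with Mcm7 at -1.19 and Gins3 at -0.79. A match is a description of letters and not a bound site. The 15 members with a match had a median spheroid to monoculture log2 ratio of -1.35, and the 23 without a match had a median of -0.82. Their ranges overlapped, from -2.96 to 0.23 with a match and from -2.88 to 1.13 without. For spheroid against 2D co-culture the medians were -1.67 and -1.44, and for spheroid against tumor the order turned, with -0.97 and -1.06. Whether a match goes with the ratios was not tested. Mcm4, Gins1, Gins2, Gins4, Rfc2, Pole, Prim2 and Ccne2 had no entry in the promoter table.

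The spheroid held the lowest level of most members, and the 2D co-culture the highest. Of the 46 members, 37 were lowest in the spheroid, against 30.5% of all genes tested. In the tumor 6 were lowest, against 39.6% of all genes tested, and in monoculture 3, against 18.6%. The 2D co-culture was highest for 30 members, against 15.8% of all genes tested, and the tumor for 12, against 31.0% of all genes tested. Summed over the 46 members, the level was 2540 CPM in spheroid, 4397 CPM in tumor, 4975 CPM in monoculture and 7385 CPM in co-culture. In bulk libraries, fewer cells in S phase and less RNA of these genes per cell cannot be told apart.

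**Figure D1:**
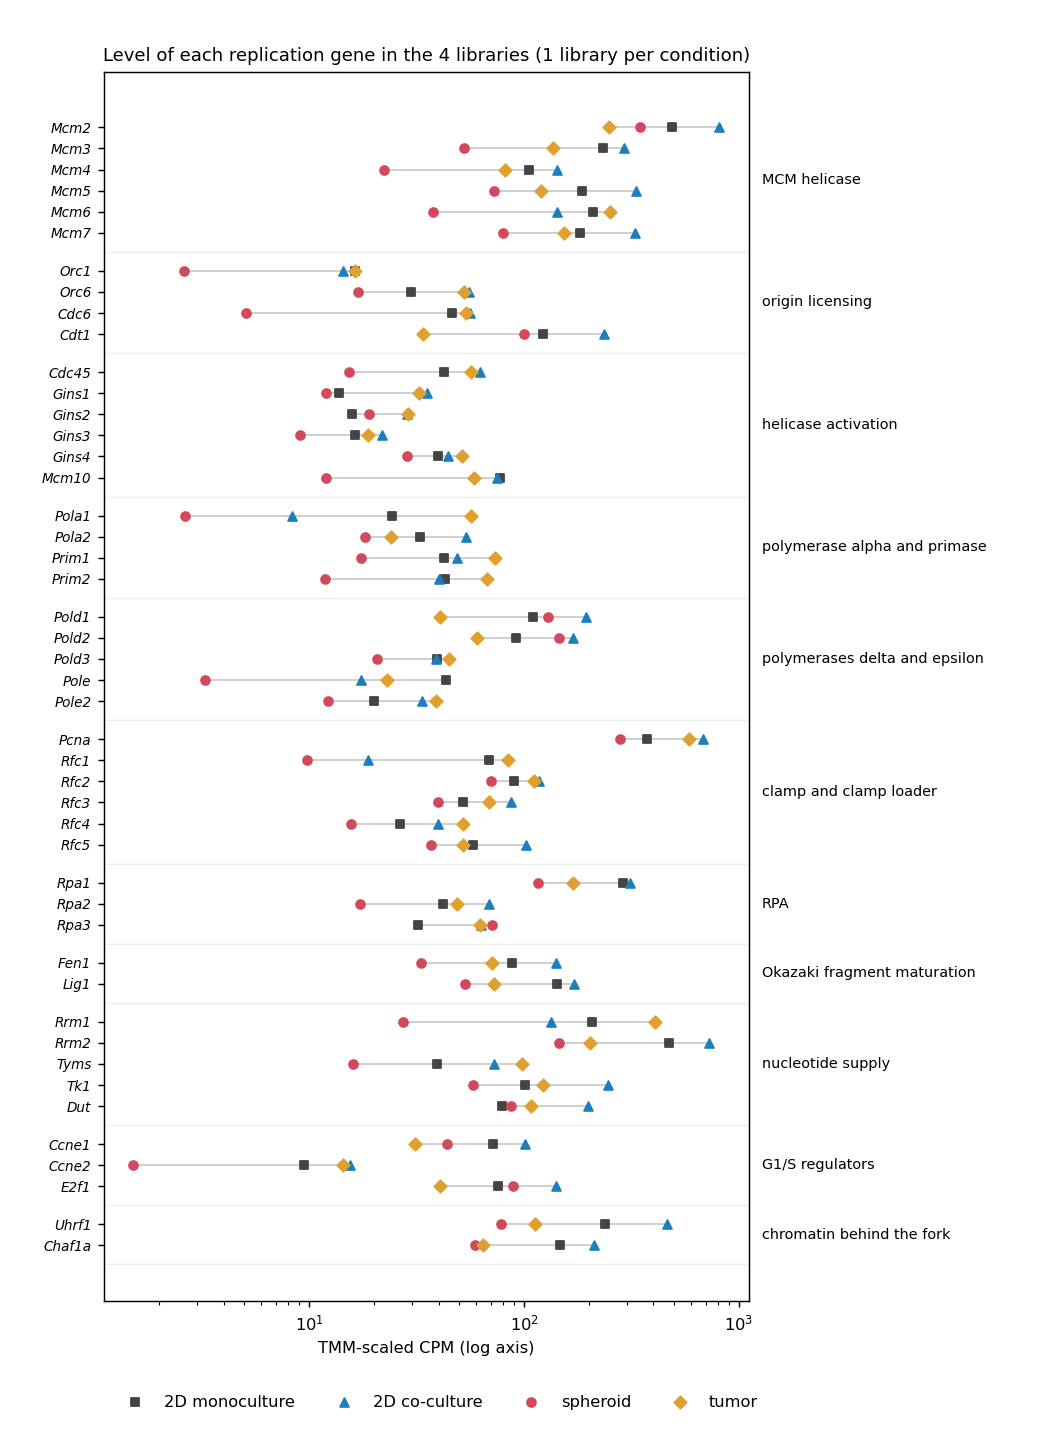
Level of each of the 46 members in the 4 libraries, in TMM-scaled CPM on a log axis, with 1 point per library and members grouped by role. The spheroid points (red circles) lie furthest left for 37 members, and the 2D co-culture points (blue triangles) furthest right for 30.

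Against the 2D monoculture, 24 members were more than 2-fold lower in the spheroid and 1, Rpa3, was more than 2-fold higher. Of all genes tested, 17.9% were that much lower and 11.2% that much higher. The median log2 ratio of the members was -1.21, a 2.32-fold lower level, while the median over all genes tested was 0.05. On this scale, the lowest ratios were those of Pole, Cdc6, Rrm1, Pola1 and Rfc1.

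Spheroid and 2D co-culture were both grown with fibroblasts, and the median difference of the members was larger between these 2 libraries. There, 37 of the 46 were more than 2-fold lower in the spheroid, against 8.46% of all genes tested, and 0 were more than 2-fold higher, against 9.54%. The median log2 ratio was -1.51, and 45 members were below 0, beside 6515 of the 12728 genes tested.

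The 2D co-culture itself lay above the 2D monoculture for 37 of the 46 members, beside 6465 of the 12728 genes tested. The median log2 ratio was 0.64, a 1.55-fold higher level. Only 3 members (Dut, Gins1 and Tk1) were more than 2-fold higher, against 3.79% of all genes tested, and 3 (Rfc1, Pola1 and Pole) were more than 2-fold lower, against 9.51%. Corrected for GC content and length, 3 (Dut, Tk1 and Tyms) were higher, against 4.09%, and 1 (Rfc1) was lower, against 6.80%.

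Before correction for GC content and length, the tumor showed no common direction against the 2D monoculture. The members' median log2 ratio was 0.19, with 25 members above 0 and 21 below. Over the 12728 genes tested the median was -0.14, with 5678 above 0 and 7050 below. In the tumor, 6 members (Cdt1, Pold1, Rrm2, Chaf1a, Ccne1 and Uhrf1) were more than 2-fold lower, against 18.2% of all genes tested, and 3 (Tyms, Pola1 and Gins1) were more than 2-fold higher, against 14.8%. With total count scaling, which moves the median of all genes tested from -0.14 to 0.09, 2 members were lower and 10 higher. Corrected for GC content and length, 1 member (Rrm2) was lower in the tumor and 2 (Gins2 and Tyms) were higher. Most members were then above 0, at a median log2 ratio of 0.17, where the median of all genes tested was 0 by the correction. Against the tumor, 24 members were more than 2-fold lower in the spheroid (27.6% of all genes tested) and 4 more than 2-fold higher (26.8%), with a median log2 ratio of -1.07. All 4 of these, Cdt1, Pold1, Pold2 and E2f1, were below 0 once GC content and transcript length had been corrected for (log2 ratios of -0.07, -0.17, -0.11 and -0.66). How far host cells in the tumor contributed reads to the members was not tested.

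**Figure D2:**
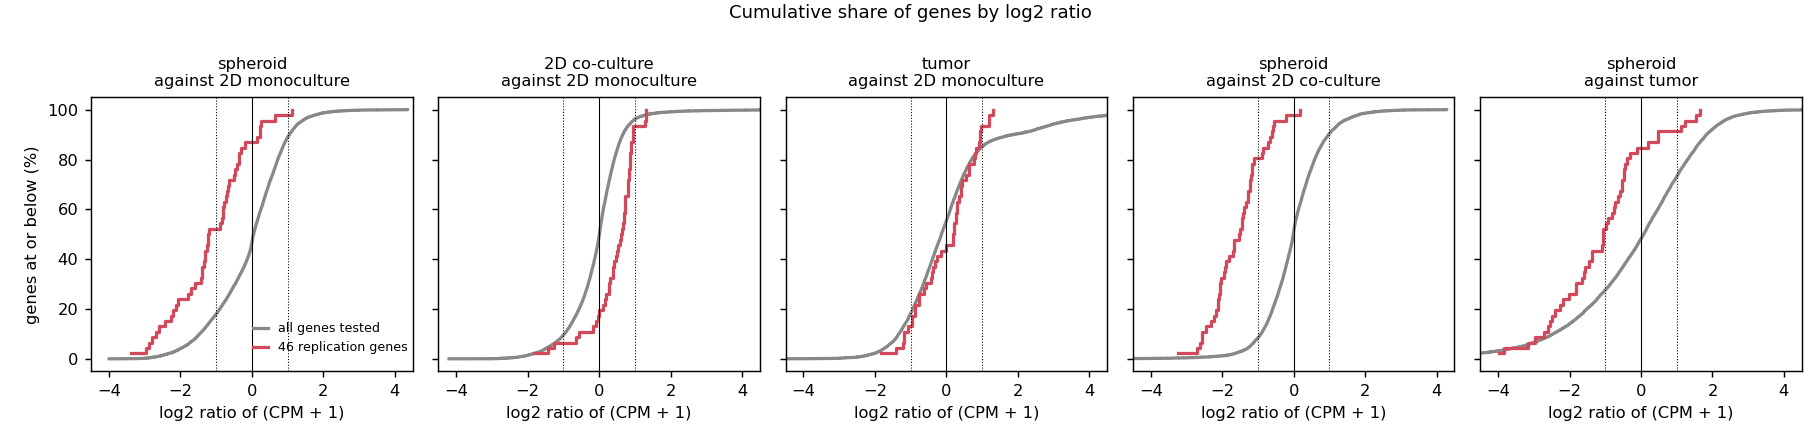
Cumulative share of genes, in percent, by log2 ratio of (CPM + 1) in 5 comparisons, for the 46 members (red) and the 12728 genes tested (grey), with dotted lines at 2-fold. At its median, the red line lies left of the grey one wherever the spheroid is compared (medians -1.21, -1.51 and -1.07) and right of it for the 2D co-culture against the 2D monoculture (median 0.64).

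Origin licensing genes differed strongly among themselves. Cdc6, which helps to place the MCM ring on origins, had 46.2 CPM in monoculture, 55.8 CPM in co-culture, 53.4 CPM in tumor and 5.06 CPM in spheroid. It was 9.14-fold lower in the spheroid than in the 2D monoculture (interval 8.45 to 9.90), whereas the other 3 libraries lay close together. Orc1, the largest subunit of the origin recognition complex, was also lowest in the spheroid, with 16.4 CPM in monoculture, 14.4 CPM in co-culture, 16.3 CPM in tumor and 2.61 CPM in spheroid. Its levels in tumor and 2D monoculture could not be told apart, with a log2 ratio of -0.01 (interval -0.09 to 0.08). Orc6, a small subunit of the same complex, had 29.9 CPM in monoculture, 55.4 CPM in co-culture, 52.3 CPM in tumor and 16.9 CPM in spheroid. Cdt1, the partner of Cdc6 in loading, was lowest in the tumor instead. It had 122 CPM in monoculture, 235 CPM in co-culture, 99.8 CPM in spheroid and 34.0 CPM in tumor. In the tumor, Cdt1 was 3.60-fold lower than in the 2D monoculture (interval 3.49 to 3.71). Corrected for GC content and length, its log2 ratios to the 2D monoculture were -1.01 in the spheroid and -0.93 in the tumor. The tumor was then no longer lowest, with -0.07 for spheroid against tumor.

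The 6 subunits of the MCM ring were each lowest in the spheroid except Mcm2, which was lowest in the tumor. Of the 6, 5 were more than 2-fold lower in the spheroid than in the 2D monoculture, beside 17.9% of all genes tested. Mcm2 had 489 CPM in monoculture, 811 CPM in co-culture, 348 CPM in spheroid and 248 CPM in tumor. Corrected for GC content and length, its log2 ratio of spheroid to tumor turned from 0.49 to -0.47, so that it too was lowest in the spheroid. Mcm3 had 233 CPM, 291 CPM, 52.3 CPM and 136 CPM in the same order of libraries. For Mcm4 the levels were 105 CPM in monoculture, 142 CPM in co-culture, 22.2 CPM in spheroid and 81.2 CPM in tumor. Mcm3 and Mcm4 were thus 4.45-fold (interval 4.34 to 4.57) and 4.73-fold (interval 4.55 to 4.93) lower in the spheroid than in the 2D monoculture, while Mcm2 was 1.40-fold lower (interval 1.39 to 1.42). Mcm5 had 186 CPM in monoculture, 331 CPM in co-culture, 72.2 CPM in spheroid and 119.3 CPM in tumor. Mcm7 had 183 CPM, 327 CPM, 79.5 CPM and 153 CPM in these libraries. Mcm6 was the only subunit below the 2D monoculture in the 2D co-culture and above it in the tumor. Its levels were 209 CPM in monoculture, 142 CPM in co-culture, 37.7 CPM in spheroid and 252 CPM in tumor. Between spheroid and tumor, Mcm6 differed 6.67-fold (interval 6.48 to 6.87).

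The factors that turn the MCM ring into a moving helicase were split. Mcm10, which joins the helicase at firing, had 77.1 CPM in monoculture, 75.1 CPM in co-culture, 58.4 CPM in tumor and 12.0 CPM in spheroid, a 6.45-fold lower level than in the 2D monoculture (interval 6.12 to 6.80). Cdc45 had 42.6 CPM in monoculture, 62.1 CPM in co-culture, 56.4 CPM in tumor and 15.4 CPM in spheroid. The 4 GINS genes, whose products form 1 complex with Cdc45 and the ring, stayed within 2-fold between spheroid and 2D monoculture. Gins1 had 13.7 CPM in monoculture, 11.9 CPM in spheroid, 35.5 CPM in co-culture and 32.3 CPM in tumor, so that the 2D co-culture and the tumor stood apart from the other two libraries. Gins2 had 15.8 CPM in monoculture, 19.0 CPM in spheroid, 28.4 CPM in co-culture and 28.8 CPM in tumor. Of its annotated exon bases, 67.3% overlap another gene on the opposite strand, and the strand setting of the counting is not stated. Gins3 ranged from 9.03 CPM in spheroid to 21.9 CPM in co-culture, and Gins4 from 28.6 CPM in spheroid to 51.3 CPM in tumor.

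Among the polymerase genes, the catalytic subunits of polymerases alpha and epsilon showed the widest differences, while that of polymerase delta was 1.18-fold higher in the spheroid than in the 2D monoculture (interval 1.15 to 1.203). This direction turned with the correction for GC content and length, which took Pold1 to a log2 ratio of -0.43. Of the 4 genes of polymerase alpha and primase, 3 (75%) were more than 2-fold lower in the spheroid than in the 2D monoculture. Of the 5 genes of polymerases delta and epsilon 1 (20%) was, close to the 17.9% of all genes tested. Pole, the catalytic subunit of the leading strand polymerase, had 43.4 CPM in monoculture, 17.5 CPM in co-culture, 23.1 CPM in tumor and 3.27 CPM in spheroid. At 13.3-fold (interval 12.0 to 14.6), its ratio of 2D monoculture to spheroid was the largest of the 46 members. Pola1, the catalytic subunit of polymerase alpha, had 24.3 CPM in monoculture, 8.29 CPM in co-culture, 56.7 CPM in tumor and 2.65 CPM in spheroid. Between tumor and spheroid it differed 21.4-fold (interval 19.2 to 23.8), and no other member had so wide a range before correction for GC content and length. The correction took its log2 ratio of spheroid to tumor from -3.98 to -2.61. Cdc6 at -2.99 and Rrm1 at -2.75 then lay further apart between these libraries. Its accessory subunit Pola2 had 32.8 CPM in monoculture, 53.7 CPM in co-culture, 24.05 CPM in tumor and 18.1 CPM in spheroid. The primase genes were lowest in the spheroid and highest in the tumor. Prim1, which makes the RNA primer, had 42.3 CPM in monoculture, 49.0 CPM in co-culture, 73.0 CPM in tumor and 17.4 CPM in spheroid. Prim2, its partner, had 43.0 CPM, 40.4 CPM, 67.1 CPM and 11.8 CPM in that order. Pole2, an accessory subunit of polymerase epsilon, ranged from 12.2 CPM in spheroid to 38.8 CPM in tumor.

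Pold1 and Pold2, the catalytic and the second subunit of polymerase delta, were above the 2D monoculture in the spheroid and below it in the tumor before correction for GC content and length. After it, both were below the 2D monoculture in the spheroid, at log2 ratios of -0.43 and -0.09, and in the tumor they stood at -0.15 and -0.05. Pold1 had 110 CPM in monoculture, 194 CPM in co-culture, 129 CPM in spheroid and 40.7 CPM in tumor. Pold2 had 91.3 CPM, 169 CPM, 145 CPM and 60.6 CPM in this order of libraries. In the tumor, Pold1 was 2.70-fold lower than in the 2D monoculture (interval 2.62 to 2.78). Pold3, a further subunit, had 39.5 CPM in monoculture, 39.1 CPM in co-culture, 44.8 CPM in tumor and 20.7 CPM in spheroid. The transcripts of Pold1 and Pold2 had a GC content of 60.7% and 58.7%, and those of Pola1 and Prim1 41.5% and 44.3%.

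The sliding clamp gene Pcna had 375 CPM in monoculture, 682 CPM in co-culture, 280 CPM in spheroid and 585 CPM in tumor. The tumor and the 2D co-culture were high and the spheroid low, with 1.34-fold less than the 2D monoculture (interval 1.32 to 1.36). Pcna has annotated pseudogenes, so part of its reads may be shared with copies. Of the 5 subunits of the clamp loader RFC, 4 differed less than 2-fold between spheroid and 2D monoculture. These were Rfc2 with 70.5 CPM and 90.1 CPM, Rfc3 with 39.9 CPM and 51.8 CPM, Rfc4 with 15.7 CPM and 26.5 CPM, and Rfc5 with 36.9 CPM and 58.0 CPM. Rfc1, the largest subunit, was the exception and also low in the 2D co-culture. It had 68.6 CPM in monoculture, 84.0 CPM in tumor, 18.7 CPM in co-culture and 9.80 CPM in spheroid, a 7.005-fold lower level than in the 2D monoculture (interval 6.61 to 7.42). Corrected for GC content and length, Rfc4 was also past 2-fold, at a spheroid to monoculture log2 ratio of -1.09, and Rfc1 stood at -1.99.

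RPA covers the single strands that the helicase exposes. Rpa1, the large subunit, had 288 CPM in monoculture, 310 CPM in co-culture, 168 CPM in tumor and 116 CPM in spheroid. Rpa2 had 41.8 CPM, 68.3 CPM, 48.5 CPM and 17.2 CPM in that order. Rpa3, the small subunit, ran against both, with 31.97 CPM in monoculture, 63.1 CPM in co-culture, 62.2 CPM in tumor and 70.9 CPM in spheroid. It was the 1 member highest in the spheroid, and its transcript, of 670 bases, was the shortest of the 46. Corrected for GC content and length, its log2 ratio was 0.49. Fen1 and Lig1, which trim and seal Okazaki fragments, were 2.66-fold (interval 2.57 to 2.75) and 2.67-fold (interval 2.60 to 2.75) lower in the spheroid than in the 2D monoculture. Fen1 had 87.9 CPM in monoculture, 141 CPM in co-culture, 33.1 CPM in spheroid and 70.9 CPM in tumor, and 84.2% of its annotated exon bases overlap Tmem258 on the opposite strand. Lig1 had 142 CPM, 171 CPM, 53.0 CPM and 72.5 CPM in these libraries.

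Nucleotide supply genes were all highest in the 2D co-culture or in the tumor. Ribonucleotide reductase, which makes deoxynucleotides, is built from the products of Rrm1 and Rrm2, and these differed in order. Rrm1 had 208 CPM in monoculture, 133 CPM in co-culture, 27.4 CPM in spheroid and 407 CPM in tumor. Rrm2, whose product is limited to S phase, had 473 CPM in monoculture, 728 CPM in co-culture, 145 CPM in spheroid and 203 CPM in tumor. Rrm1 was 14.9-fold higher in the tumor than in the spheroid (interval 14.4 to 15.4), and Rrm2 1.40-fold (interval 1.38 to 1.43). The correction for GC content and length took the log2 ratio of spheroid to tumor from -3.85 to -2.75 for Rrm1. For Rrm2 it went from -0.48 to 0.05. Tyms, the source of thymidylate in the main synthesis path, had 39.3 CPM in monoculture, 72.4 CPM in co-culture, 16.01 CPM in spheroid and 98.1 CPM in tumor, and it has an annotated pseudogene copy. Tk1, the salvage kinase for thymidine, had 101 CPM, 246 CPM, 57.7 CPM and 123 CPM in these libraries. Dut, which keeps uracil out of DNA by removing dUTP, had 79.0 CPM in monoculture, 199 CPM in co-culture, 87.3 CPM in spheroid and 108 CPM in tumor. Tk1 and Dut were thus 2.44-fold (interval 2.39 to 2.49) and 2.52-fold (interval 2.46 to 2.58) higher in the 2D co-culture than in the 2D monoculture.

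Of the G1/S regulators, the 2 cyclin E genes did not follow each other. Ccne1 had 71.7 CPM in monoculture, 101 CPM in co-culture, 43.9 CPM in spheroid and 31.2 CPM in tumor, with the tumor lowest. This order was lost after the correction for GC content and length, where the log2 ratio of spheroid to tumor was -0.15. Ccne2 had 9.50 CPM in monoculture, 15.5 CPM in co-culture, 14.4 CPM in tumor and 1.52 CPM in spheroid, a level that rests on 207 reads. It was 6.25-fold lower in the spheroid than in the 2D monoculture (interval 5.40 to 7.27). E2f1, the activator that drives many of the members, had 75.7 CPM in monoculture, 141 CPM in co-culture, 89.1 CPM in spheroid and 40.6 CPM in tumor. In the spheroid it was 1.18-fold above the 2D monoculture (interval 1.15 to 1.21), while 24 other members were more than 2-fold lower there. Corrected for GC content and length, its log2 ratio was -0.53. Uhrf1, which brings the maintenance methyltransferase to newly copied DNA, had 238 CPM in monoculture, 462 CPM in co-culture, 77.8 CPM in spheroid and 113 CPM in tumor. Chaf1a, a subunit of the chaperone that places histones behind the fork, had 147 CPM, 211 CPM, 59.3 CPM and 64.4 CPM in these libraries. Both were below the 2D monoculture in the spheroid and in the tumor. Corrected for GC content and length, Uhrf1 had log2 ratios of -1.75 in the spheroid and -0.30 in the tumor, and Chaf1a -1.38 and -0.05, so that the tumor lay nearer the 2D monoculture. Of the annotated exon bases of Chaf1a, 52.5% overlap a gene on the opposite strand.

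Subunits of 1 complex can be set side by side once their levels are divided by transcript length. On this scale, CPM per kb, Mcm2 was the highest MCM subunit in each library. The ratio of highest to lowest subunit of the ring was 4.95 in monoculture, 7.36 in co-culture, 16.7 in the spheroid and 3.25 in the tumor. In RFC, Rfc3 was highest and Rfc1 lowest in each library, and their ratio of levels per kb was 2.72 in monoculture, 16.7 in co-culture, 14.7 in the spheroid and 2.95 in the tumor. For polymerase alpha and primase, the ratio was 5.90 in monoculture, 20.0 in co-culture, 22.2 in the spheroid and 4.64 in the tumor. For the 5 subunits of polymerases delta and epsilon, Pold2 was highest and Pole lowest in each library, at ratios of 9.16, 42.2, 193 and 11.4 in the order 2D monoculture, 2D co-culture, spheroid and tumor. RPA showed 2.46, 2.50, 11.2 and 3.47 in that order. Before correction for GC content and length, the subunits thus lay further apart in the spheroid than in the 2D monoculture in all 5 of these groups. In the spheroid they also lay further apart than in the tumor. The 2D co-culture was likewise wider than the 2D monoculture in all 5 groups, and in RFC wider than the spheroid. Division by length does not remove a relation of the ratios to length. With the correction, the spheroid to monoculture log2 ratios of Pold2 and Pole went from 0.66 and -3.38 to -0.09 and -2.55. Those of Rfc3 and Rfc1 went from -0.37 and -2.69 to -0.49 and -1.99. For Mcm2 and Mcm4 they went from -0.49 and -2.19 to -0.85 and -1.48. For Prim1 and Pola1 they went from -1.23 and -2.79 to -1.27 and -1.81, and for Rpa3 and Rpa2 from 1.13 and -1.24 to 0.49 and -1.33. Each of these pairs lay nearer together after the correction.

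**Figure D3:**
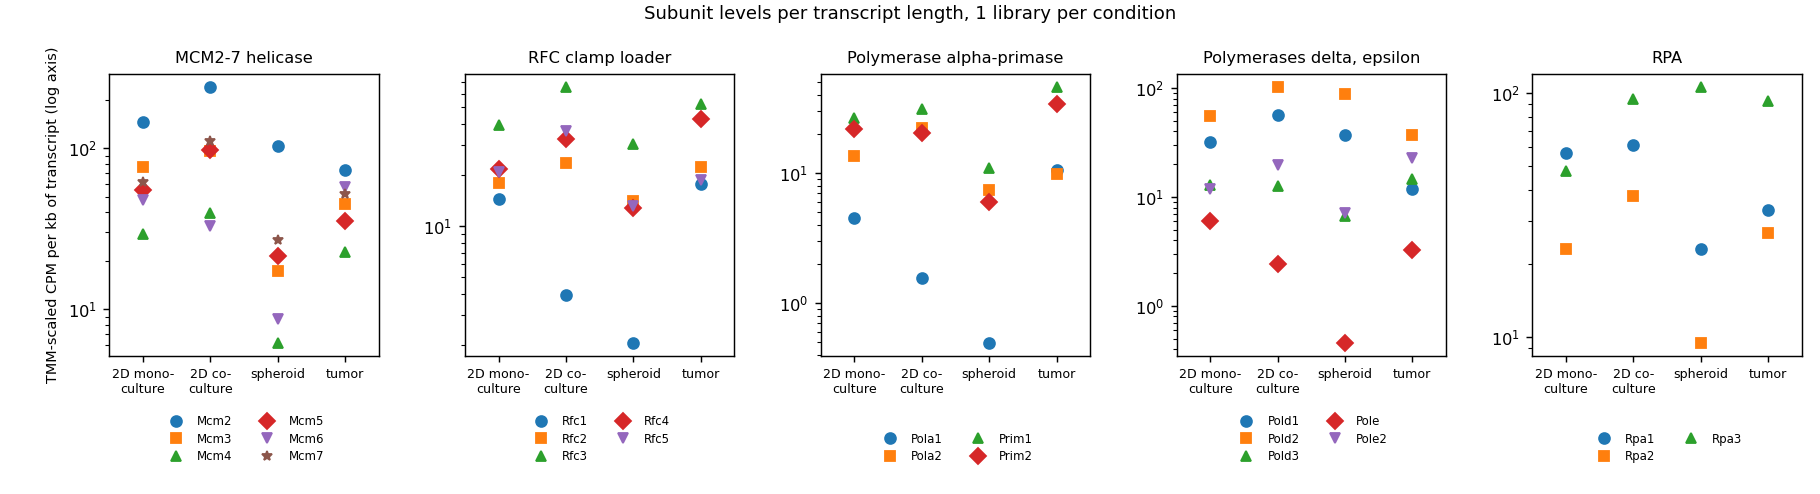
Level of each subunit in TMM-scaled CPM per kb of transcript, on log axes that differ between panels, for 5 complexes or polymerase groups, with 1 point per library. In the RFC panel Rfc1 (circles) drops to 3.94 CPM per kb in the 2D co-culture and 2.06 CPM per kb in the spheroid, away from the other 4 subunits.

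Transcript length and base composition were not used to choose the members, and the ratios moved with both. Across the 46 members, the log2 ratio of spheroid to 2D monoculture and transcript length had a Spearman correlation of -0.56. Across the 12466 genes tested with a known length it was -0.40. These points share the same 2 libraries, and the correlations are descriptions. The 23 shorter members, with transcripts of 670 to 2796 bases, had a median log2 ratio of -0.70, and the 23 longer ones, with 2962 to 7163 bases, a median of -1.60. For tumor against 2D monoculture, the correlation with GC content was -0.70 across the members and -0.39 across all genes tested. Between spheroid and tumor, it was 0.66 across the members and 0.55 across all genes tested. After the median log2 ratio of genes of like GC content and length was removed, 27 of the 46 members were more than 2-fold lower in the spheroid than in the 2D monoculture, beside 11.1% of all genes tested, with a median of -1.21. Among transcripts of at most 3000 bases, 7 of 24 members were that much lower, beside 6.67% of 6101 genes, with a median of -0.71. A part of RNA quality or library preparation in the relation to length and GC content was not tested.

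**Figure D4:**
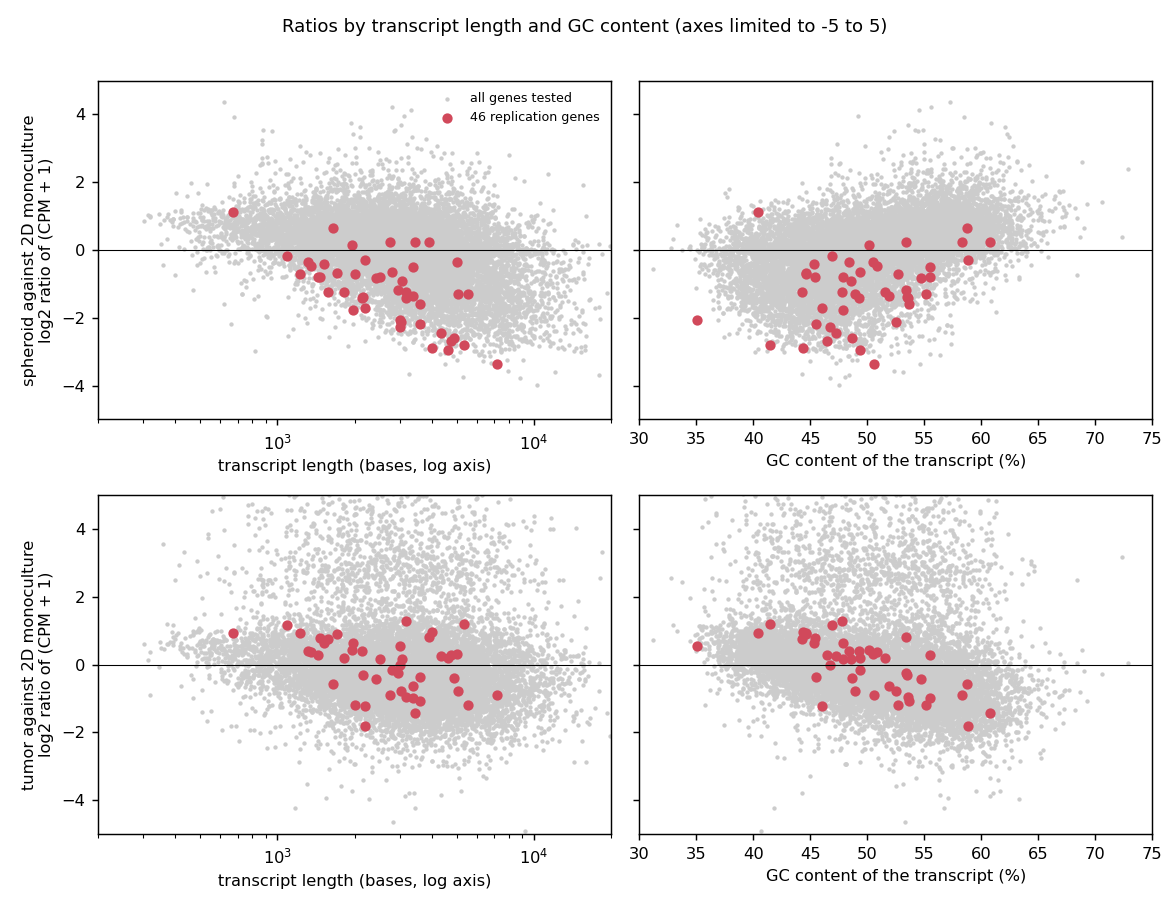
Log2 ratio of (CPM + 1) of spheroid (top) and tumor (bottom) to 2D monoculture by transcript length in bases on a log axis (left) and GC content in percent (right), for the 46 members (red) and all genes tested (grey). Red points tend to lie lower at greater length in the top left panel, with exceptions such as Rfc2 (4995 bases, -0.35). In size, 206 genes are past a log2 ratio of 5 and lie outside the bottom panels.

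Genes of the same steps that are not members had medians of the same sign as the members in each condition. Of 40 other replication and S phase genes, 16 (40%) were more than 2-fold lower in the spheroid than in the 2D monoculture, beside 17.9% of all genes tested. Only 1 (2.5%) was more than 2-fold higher, beside 11.2%, and the median log2 ratio was -0.70. The lowest were Clspn, a mediator of the S phase checkpoint, with 33.4 CPM in monoculture and 2.62 CPM in spheroid, and Wdhd1, which links polymerase alpha to the helicase, with 18.9 CPM and 2.00 CPM. The highest were Pold4, the smallest subunit of polymerase delta, with 8.58 CPM in monoculture and 23.7 CPM in spheroid, and Cdk2, the partner of cyclin E, with 337 CPM and 642 CPM. In the 2D co-culture, the median of these 40 genes was 0.41, with 2 (5%) more than 2-fold higher and 0 more than 2-fold lower. Of all genes tested, 3.79% and 9.51% were. In the tumor the median was 0.25, with 3 (7.5%) higher and 5 (12.5%) lower, beside 14.8% and 18.2% of all genes tested.

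For 15 genes of G2 and mitosis the median log2 ratio against monoculture was -0.88 for spheroid, -0.09 for co-culture and 0.55 for tumor. In the 2D co-culture, 5 of the 15 were more than 2-fold lower and 1 higher, beside 9.51% and 3.79% of all genes tested. Top2a and Cenpe were lowest in the spheroid relative to the 2D monoculture, with 23.5 CPM against 168 CPM and 2.47 CPM against 19.1 CPM. Ccnb2 and Aurkb, a mitotic cyclin and a mitotic kinase, were highest, with 94.6 CPM against 61.6 CPM and 128 CPM against 94.3 CPM. Of 15 repressors of the G1/S step, 13 passed the filter, and 3 of them (23.1%) were more than 2-fold higher in the spheroid, beside 11.2% of all genes tested, and 2 (15.4%) lower, beside 17.9%. E2f5, a repressive E2F factor, had 80.4 CPM in spheroid and 19.9 CPM in monoculture, and Cdkn1b, which encodes the cyclin E-CDK2 inhibitor p27, had 262 CPM and 72.5 CPM. Rbl1 and Lin54, members of the repressor complexes of quiescent cells, were lowest, with 15.4 CPM against 47.9 CPM and 9.24 CPM against 22.1 CPM. These lists were compared with the members by their values only.

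**Figure D5:**
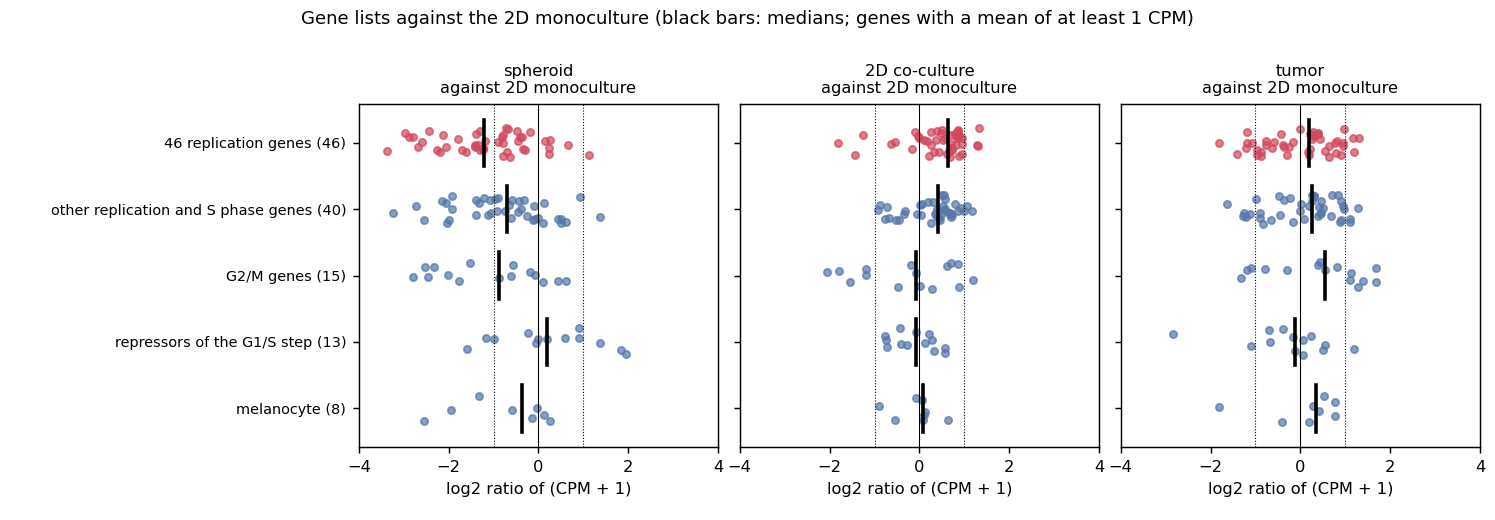
Log2 ratio of (CPM + 1) to the 2D monoculture for the 46 members and 4 other gene lists in spheroid, 2D co-culture and tumor, with 1 point per gene and a black bar at each median. The members' median is -1.21 in the spheroid, 0.64 in co-culture and 0.19 in the tumor, and that of the G2/M genes is -0.88, -0.09 and 0.55.

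The 5 skeletal muscle genes were high in the tumor library and also had reads in the cultures. They stood at a median of 0.130% of their tumor level in spheroid and 0.195% in co-culture. At these median shares, the tumor level of Pola1 would correspond to 2.78% of its level in spheroid and 1.33% in co-culture. These were the largest values among the members. They are not bounds, since single muscle genes differed in their share. Mylpf, above the median share, had 7.20 CPM in spheroid, 2.38 CPM in monoculture and 534 CPM in tumor. Whether the muscle reads of the cultures came from the tumor sample was not tested. The fibroblast genes of the 2D co-culture library were led by Col1a2 with 514 CPM, and how many reads NIH/3T3 cells gave to the members there was not tested.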

How the data were processed

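RNA of 4 samples, 1 per condition, was sequenced after poly(A) selection with paired ends. Raw read counts by gene symbol were deposited in a single table, with no normalization by the authors. Per the submitters' processing notes, Trimmomatic, STAR and featureCounts were used on mm10, without versions, and the strand setting was not stated. CPM was calculated from these counts with edgeR 4.0.16 (TMM factors) in R 4.3.3. DESeq2 1.42.0 size factors, total counts and upper quartiles were alternatives. No test was made, and ratios carry an exact 95% binomial interval. Genes whose mean reached 1 CPM were kept, a pseudocount of 1 CPM was added for log2 ratios on the (CPM + 1) scale, and single ratios used none. A count of 3 reads, the limit that 0 reads allow, was between 0.0185 and 0.0262 CPM. Interval half-widths of the members' CPM were at most 13.9%, and they cover counting error only.

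Transcript length and GC content came from GENCODE M21 (GRCm38, the same assembly as mm10), with the longest transcript linked to a curated RefSeq mRNA. Of the genes tested, 97.9% had a value. The correction removed the median of each of 10 GC classes by 10 length classes. Promoters came from RefSeq. Searches of protein motifs were planned and not run. The code for calls and intervals was checked on counts simulated with known changes and counting error only. Such counts hold no variation between cultures and no effect of GC content or length, so they do not test the calls themselves. Python 3.11.15, numpy 2.4.6, pandas 2.3.3, scipy 1.17.1 and matplotlib 3.10.9 were used.

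The members and gene lists were chosen with earlier results of these data known. The genes named are the members, in each other list the genes with the 2 lowest and 2 highest spheroid ratios to the 2D monoculture, and markers of other cell types. Of the markers, Pecam1, Adgre1, Ptprc, Cd68, Vwf, Egfl7, Pdgfrb, Col1a1, Col3a1, Dcn and Col1a2 were chosen after their values were seen.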

Additional observations from a re-analysis of the deposited data

Results flagged for a closer look

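Pola1 and Tyms were past 2-fold in opposite directions in different conditions when each was set against the 2D monoculture. On the scale of log2(CPM + 1), Pola1 had a ratio of -2.79 for spheroid, -1.44 for co-culture and 1.19 for tumor. Tyms had -1.24 in the spheroid and 1.30 in the tumor. With 1 library per condition these differences between conditions were not tested, and the ratios of each gene share the 2D monoculture library. After the GC and length correction, Pola1 stood at -1.81 for spheroid, -0.97 for co-culture and 0.86 for tumor, and Tyms at -0.70 for spheroid and 1.36 for tumor, so that neither gene was past 2-fold in both directions.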

How the results depend on the processing

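No paired analysis was possible because the conditions are represented by single libraries, and no replicate could be left out. Of 150 values of counts and medians under the alternatives, 130 kept within 1.5-fold of the reported value and 20 did not, and no median changed sign. Ratios of single members are not among these values. For spheroid against 2D monoculture, the GC and length correction moved 17 members by more than 1.5-fold or across 2-fold, and left 29. It moved 16, and left 30, for tumor against 2D monoculture. For spheroid against tumor it moved 19, turned 4 to the opposite sign and left 23. It moved 4 for 2D co-culture against 2D monoculture and 7 for spheroid against 2D co-culture. The alternatives of transcripts of at most 3000 bases (24 members) and TMM factors of the 3 cultures were chosen after seeing the data. For spheroid against 2D monoculture, 0 members (GC and length correction) and 2 (1.5-fold) were higher. For 2D co-culture against 2D monoculture, 7 (upper quartile) and 24 (1.5-fold) were higher and 1 (correction) was lower. For tumor against 2D monoculture, 2 were lower and 10 higher with total counts and with upper quartiles, 1 was lower after the correction, and 13 were lower and 12 higher at 1.5-fold. For spheroid against tumor, 2 (total counts) and 0 (correction) were higher, and the correction took Cdt1 to a log2 ratio of -0.067, Pold1 to -0.17, Pold2 to -0.11 and E2f1 to -0.66. Among transcripts of at most 3000 bases, members lower numbered 7, 0, 3, 20 and 11 for spheroid, co-culture and tumor against monoculture and for spheroid against co-culture and tumor, and 1 was higher in the tumor. Fewer members were counted in that set. Total count scaling moved the median of all genes from -0.14 to 0.09 for tumor against monoculture and from 0.08 to -0.27 for spheroid against tumor. The cause of other changes was not tested. Depth limits Ccne2, Orc1 and Pola1 in the spheroid most.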
